A study of Bos taurus with 10 samples.

Results

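The genes of propionate metabolism were followed in liver biopsies that dairy cows gave in lactation week 5. They were taken as every probe set of the array table whose only gene symbol was PCCA, PCCB, MCEE, MMUT, MMAA, MMAB, ACSS1 or ACSS3. This gave 9 probe sets of 7 genes among 24016 probe sets tested, with 2 probe sets each for MMAB and ACSS1. No probe set was named ACSS3 in the platform annotation, so this gene was not analysed here. MMUT, formerly called MUT, was matched under its current symbol.

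All animals were female Holstein cows, a mix of first-calf and older cows, kept on 1 mixed ration with concentrate. Between week 3 before calving and week 14 of lactation, 20 cows were fed conjugated linoleic acid (CLA, isomers of linoleic acid whose double bonds are conjugated) in a rumen-protected fat, and 20 a rumen-protected control fat, per the labels' protocols. In both groups the fat formed 27.3% of a supplemental concentrate given at 630 g of dry matter a day. Each Affymetrix bovine array was hybridized with 1 pool of liver biopsy RNA from 4 cows, with 5 CLA pools and 5 control pools. Values are log2 signals, and a difference is CLA minus control, so that a difference of 1 would be a doubling. The pools hide differences between single cows, and in whole liver RNA fewer cells of a type and less RNA per cell cannot be told apart.

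Propionate is made by fermentation in the rumen and is the main substrate from which the ruminant liver makes glucose. In the mitochondria it is activated to propionyl-CoA, carboxylated by the biotin enzyme propionyl-CoA carboxylase, turned to its mirror form by an epimerase, and rearranged to succinyl-CoA by methylmalonyl-CoA mutase, an enzyme that needs a form of vitamin B12. Succinyl-CoA enters the tricarboxylic acid cycle and leaves it on the way to glucose. Propionyl-CoA also comes from the breakdown of valine and isoleucine.

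No gene of the pathway differed between the diets beyond the test corrected for all probe sets. Methylmalonyl-CoA mutase was 1.12-fold higher in the CLA pools and was the 1 of 9 probe sets with an unadjusted p under 0.05, which 8.89% of all probe sets had. The carboxylase subunits, the epimerase and the B12 proteins MMAA and MMAB were 1.02-fold to 1.04-fold higher on average at their brightest probe sets, within the spread between pools. The epimerase and the brighter MMAB set each changed sign in 6 of 19 alternative settings, some of which cannot change a difference by design. The dimmer MMAB set differed by -0.13 on the log2 scale. ACSS1 lay at 0.880 of the control level at its brighter probe set.

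The array as a whole showed the same absence of calls. Of 24016 probe sets limma called 0 (0%) at a Benjamini-Hochberg adjusted p under 0.05, with 0.252 the lowest, and the unmoderated test called none either. The unadjusted p was under 0.05 for 8.89% of the probe sets: 4.01% had higher and 4.88% lower signals with CLA. That balance turned with the scaling, to 1100 higher and 817 lower after quantile normalization, against 962 and 1173 in the values as deposited. The groups did not overlap for 1.97% of probe sets. Array medians ran from 5.79 to 5.82 in the CLA pools and from 5.83 to 5.85 in the control pools (exact two-sided permutation p = 0.0079, the smallest that 252 groupings can give), and the interquartile ranges from 3.65 to 3.8 and from 3.59 to 3.72 (p = 0.230). CLA pool 2 and control pool 4 correlated least with the other arrays.

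The tissue label was checked with its markers. Albumin (ALB) averaged 14.93 ± 0.011 (SD, n = 5) in the CLA pools, and the 9 measured hepatocyte markers, 8 of them higher with CLA, averaged 12.96 to 13.01 in the CLA pools and 12.81 to 13.03 in the control pools. The T and NK lymphocyte list was lower with CLA in 9 of 9 measured markers, with 0 past the adjusted test, and its mean ran from 6.47 to 6.74 against 6.59 to 7.09. Markers of Kupffer cells and macrophages were lower in 5 of 5 and erythroid markers in 5 of 5. B lymphocyte and plasma cell markers were lower in 3 of 4 and skeletal muscle markers in 4 of 5. Endothelial markers were lower in 4 of 7, stellate cell and fibroblast markers in 2 of 7 and cholangiocyte markers in 2 of 4. The dimmest 30% of the array held 3 of the erythroid, 3 of the skeletal muscle, 2 of the endothelial and 1 of the B lymphocyte and plasma cell markers. Of all 9155 named genes 4873 had a lower and 4214 a higher mean with CLA at their brightest probe set. None of the listed markers passed the adjusted test, and their part in the differences below was not tested.

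The probe sets of the core pathway gave strong signals in this tissue. MMUT lay at the 98.2nd percentile of mean signal over the array, PCCA at the 97.4th, MCEE at the 93.4th, PCCB at the 92.6th, the brighter MMAB set at the 91.8th and MMAA at the 86.8th. The ACSS1 sets lay at the 54.0th and 56.0th and the dimmer MMAB set at the 48.3rd. These positions describe the brightness of probe sets and do not order the transcripts, since probes differ in how well they bind. All 9 sets lay outside the dimmest 30% of the array.

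Propionyl-CoA carboxylase consists of PCCA, the alpha subunit that carries biotin, and PCCB, the beta subunit that transfers the carboxyl group to propionyl-CoA. PCCA (NCBI gene 614302) read 11.30, 11.32, 11.20, 11.32 and 11.09 in control pools 1 to 5 and 11.36, 11.27, 11.37, 11.35 and 11.18 in CLA pools 1 to 5. The groups overlapped, 3 CLA pools lay above every control pool, and control pool 5 and CLA pool 5 were the lowest of their groups. PCCA differed by 0.06 ± 0.072 SE (limma, unadjusted p = 0.418, Benjamini-Hochberg adjusted p = 0.849). Its 95% confidence interval, from -0.10 to 0.22, reached 1.16-fold. The difference was 0.021 without control pool 5, 0.092 without CLA pool 5, 0.012 after quantile normalization and 0.022 after cyclic loess normalization.

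PCCB (NCBI gene 515902) read 9.73, 9.69, 9.78, 9.92 and 9.64 in the control pools and 9.96, 9.82, 9.87, 9.76 and 9.58 in the CLA pools. The CLA pools held both the highest and the lowest value, so the groups lay within each other. The difference was 0.05 ± 0.084 SE (limma, Benjamini-Hochberg adjusted p = 0.913), with an interval from -0.14 to 0.23. It lay between 0.0055 (without CLA pool 1) and 0.10 (without CLA pool 5) with a single pool left out; control pools 2, 4 and 5 and CLA pool 3 also moved it by over 1.5 times. After quantile normalization it was 0.00010. The subunits were also compared within each array. PCCA minus PCCB was 1.51 ± 0.087 (SD, n = 5) in the CLA pools and 1.49 ± 0.10 in the control pools, a change of 0.014 that was smaller than the spread between pools (exact two-sided permutation p = 0.825, adjusted 0.865 over 2 pairs). With control pool 3 or 4, or CLA pool 4 or 5, left out it turned to between -0.0095 and -0.0045.

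MCEE encodes the epimerase that converts the carboxylase product to the form used by the mutase. The MCEE signal (NCBI gene 508170) was 9.78, 9.92, 10.15, 9.85 and 9.86 in the control pools and 9.89, 10.21, 9.97, 9.88 and 9.75 in the CLA pools. Control pool 3 and CLA pool 2 stood above the other pools of their diet, and the ranges of the groups nearly coincided. The difference was 0.03 ± 0.097 SE (limma, Benjamini-Hochberg adjusted p = 0.961), with an interval from -0.18 to 0.24. It was -0.040 without CLA pool 2 and -0.0050 without control pool 1, and -0.014 after quantile normalization, so its sign was not settled.

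MMUT encodes methylmalonyl-CoA mutase, which forms succinyl-CoA. The MMUT signal (NCBI gene 280871) was 11.64, 11.68, 11.87, 11.75 and 11.73 in control pools 1 to 5. It was 11.99, 11.94, 11.88, 11.90 and 11.79 in CLA pools 1 to 5. Of the 5 CLA pools 4 lay above every control pool, and the groups overlapped through CLA pool 5, which fell below control pool 3.

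**Figure D1:**
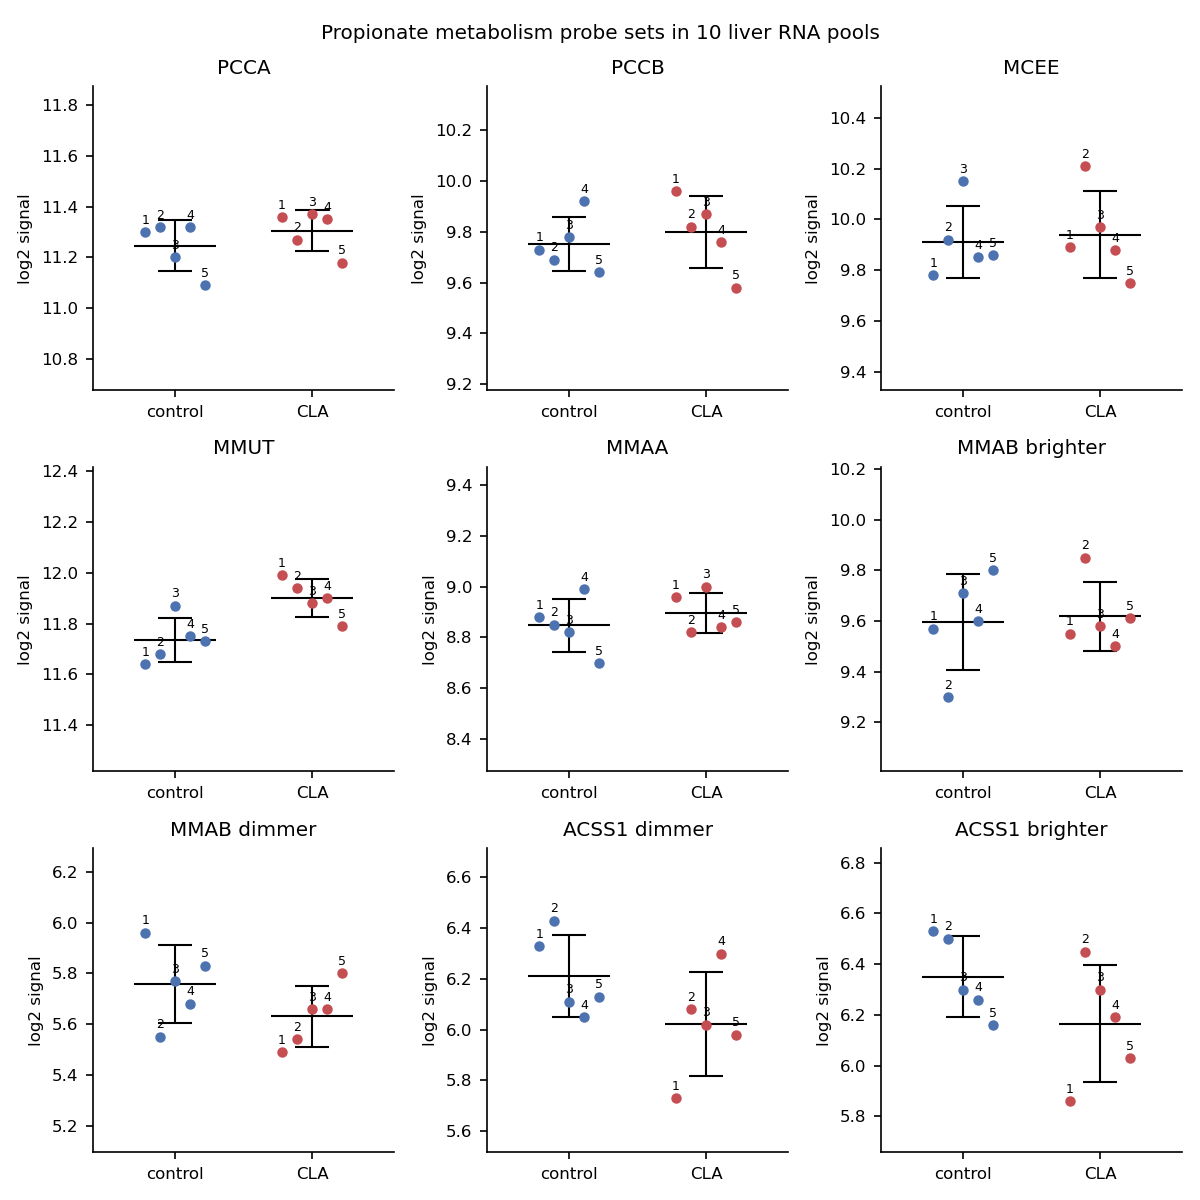
Log2 signal of the 9 propionate metabolism probe sets in the 5 control pools (blue) and the 5 CLA pools (red), numbered by pool; the horizontal line is the group mean, the bar is 1 SD, and each vertical axis spans the same range of log2 units. For MMUT 4 of 5 CLA pools lie above every control pool, whereas the groups lie largely within each other for PCCB, MCEE and the brighter MMAB set.

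The mutase averaged 11.90 ± 0.074 (SD, n = 5) with CLA and 11.73 ± 0.087 (SD, n = 5) with the control fat. The difference was 0.17 ± 0.068 SE, with a 95% confidence interval from 0.02 to 0.31 (1.01-fold to 1.24-fold). Limma gave an unadjusted p of 0.0316 and a Benjamini-Hochberg adjusted p = 0.525. The exact two-sided permutation p was 0.0159, and 8.61% of all probe sets had a permutation p under 0.05. The mutase had a small spread between pools of the same diet, with a residual SD of 0.081 against a median of 0.152 over the array.

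The direction of the mutase difference held under all 19 alternatives run, between 0.12 and 0.20. The filter on dim probe sets, the pool number as a block and the other variance models leave that difference unchanged by design, so they could not turn it. The unadjusted p stayed under 0.05 in 10 of the 19 alternatives. It was 0.0936 after quantile normalization and 0.0675 after cyclic loess normalization. Without a single pool it ran from 0.0150 to 0.0781, and it exceeded 0.05 once control pool 1 or 2, or CLA pool 1, 2 or 4, was left out. The adjusted p was 0.401 or more in all of them.

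**Figure D2:**
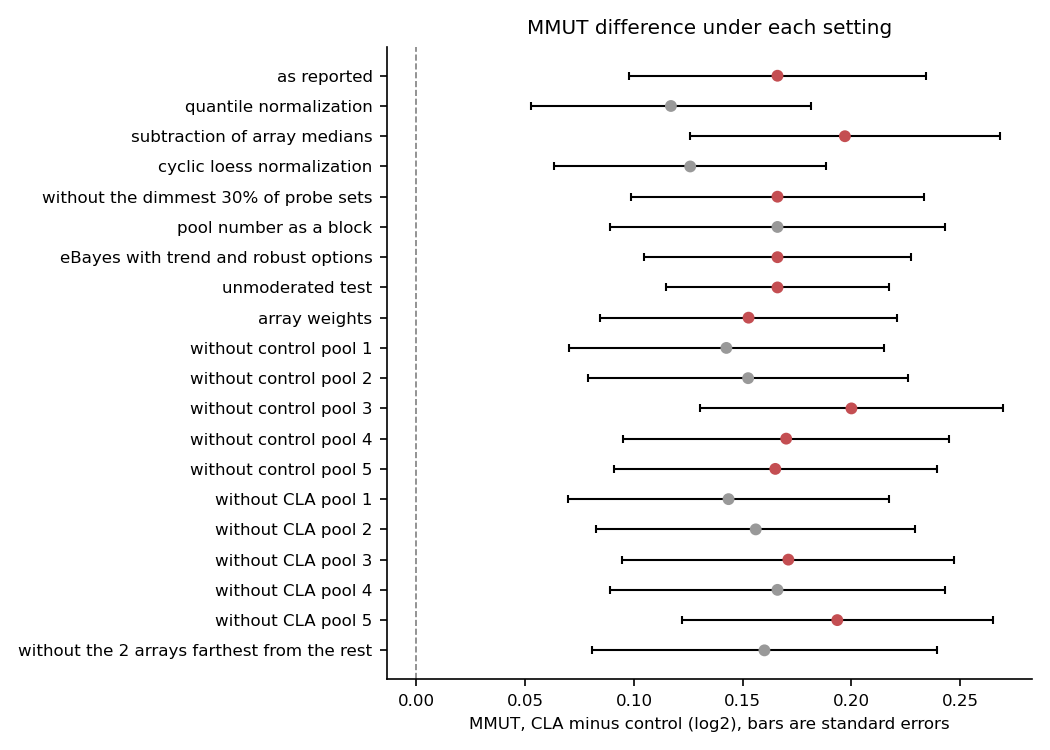
Difference of MMUT between CLA and control pools on the log2 scale (horizontal axis) under the reported fit and 19 alternatives (vertical axis); bars are standard errors, and red points have an unadjusted p under 0.05. All points lie between 0.12 and 0.20, right of the dashed line at 0. The filter on dim probe sets, the block and the other variance models cannot move the point.

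The mutase works with B12 proteins. MMAA is the G protein that loads and protects the mutase's cofactor, and MMAB is the enzyme that makes that cofactor, adenosylcobalamin. MMAA (NCBI gene 511673) read 8.88, 8.85, 8.82, 8.99 and 8.70 in the control pools and 8.96, 8.82, 9.0, 8.84 and 8.86 in the CLA pools. The groups overlapped over most of their range, with control pool 5 the lowest of all. The difference was 0.05 ± 0.072 SE (limma, Benjamini-Hochberg adjusted p = 0.891), with an interval from -0.11 to 0.21. It was 0.011 without control pool 5, 0.022 without CLA pool 3 and 0.084 without control pool 4, and 0.0065 after quantile normalization.

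The MMAB probe sets (NCBI gene 617636) did not read alike. The brighter set gave 9.57, 9.30, 9.71, 9.60 and 9.80 in the control pools and 9.55, 9.85, 9.58, 9.50 and 9.61 in the CLA pools. The control pools had an SD of 0.189 (n = 5), with control pool 2 at the bottom, and the difference was 0.02 ± 0.10 SE (limma, Benjamini-Hochberg adjusted p = 0.972). It was -0.052 without control pool 2 and 0.073 without control pool 5.

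The dimmer MMAB set gave 5.96, 5.55, 5.77, 5.68 and 5.83 in the control pools and 5.49, 5.54, 5.66, 5.66 and 5.80 in the CLA pools. Of the CLA pools 2 lay below every control pool, and the difference was -0.13 ± 0.089 SE (limma, Benjamini-Hochberg adjusted p = 0.719), or -0.078 without control pool 1. MMAA minus the brighter MMAB set, taken within each array, changed by 0.026 (exact two-sided permutation p = 0.865, adjusted 0.865 over the same 2 pairs), and by -0.062 without control pool 5. The dimmer set was not part of that comparison.

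ACSS1 (NCBI gene 282873) is a mitochondrial acyl-CoA synthetase best known for activating acetate. Its brighter set read 6.53, 6.50, 6.30, 6.26 and 6.16 in the control pools and 5.86, 6.45, 6.30, 6.19 and 6.03 in the CLA pools. Its dimmer set read 6.33, 6.43, 6.11, 6.05 and 6.13 in the control pools and 5.73, 6.08, 6.02, 6.30 and 5.98 in the CLA pools. CLA pool 1 was the lowest of the 10 pools in both sets and control pools 1 and 2 were high in both, while CLA pool 4 was highest of its group in the dimmer set only.

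Both ACSS1 sets were lower with CLA by a similar amount, -0.18 ± 0.12 SE at the brighter and -0.19 ± 0.11 SE at the dimmer. Neither passed limma's test (Benjamini-Hochberg adjusted p = 0.684 and 0.649), and both read the same gene in the same RNA, so they are not independent measurements. The brighter set had an unadjusted p of 0.0382 without CLA pool 2, at a difference of -0.26. The dimmer had 0.0311 without CLA pool 4, also at -0.26. Without CLA pool 1 the differences shrank to -0.11 at the brighter set and -0.115 at the dimmer.

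**Figure D3:**
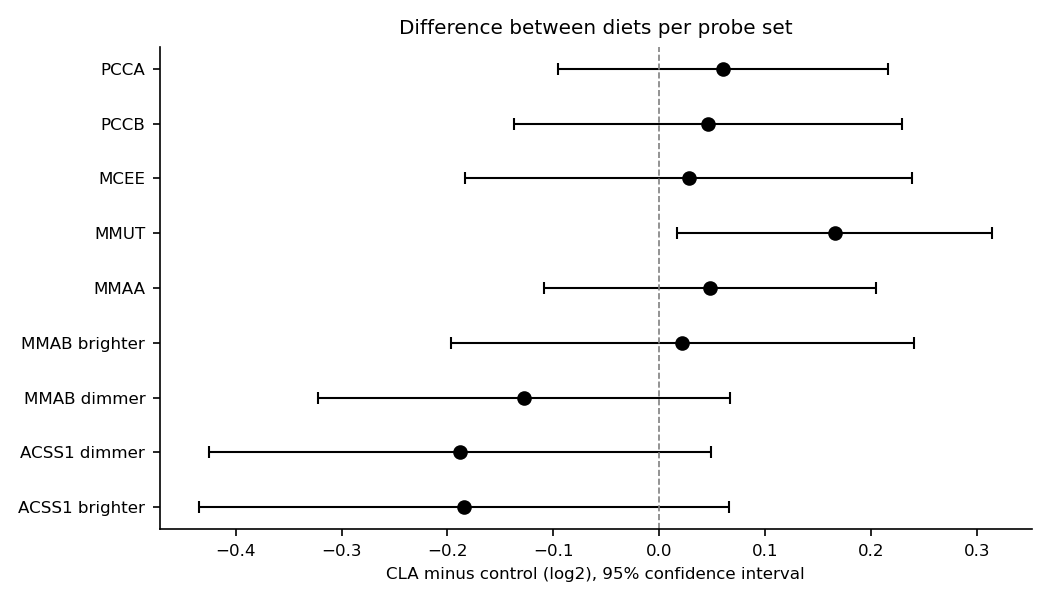
Difference between CLA and control pools on the log2 scale (horizontal axis) for each propionate metabolism probe set, with its 95% confidence interval from limma. The MMUT interval, 0.02 to 0.31, is the 1 interval that lies on a single side of 0.

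Of the 9 propionate sets 6 had a higher and 3 a lower mean with CLA, at a median of 0.028. Of all probe sets tested 10437 had a higher and 13414 a lower mean, at a median of -0.018. The unadjusted p was under 0.05 for 1 of 9, beside 8.89% of all probe sets. For 0 of 9 the groups did not overlap, beside 1.97% of all. The median of the 9 sets was -0.036 without CLA pool 2, -0.030 with array weights, -0.014 after quantile normalization and -0.0057 after cyclic loess normalization, so it had no stable sign. The confidence intervals, each for a single probe set and unadjusted, reached between 0.15 and 0.25 log2 units to each side of the difference. These widths do not set what the adjusted test could resolve. DBT, a gene of valine and isoleucine breakdown described below, differed by 0.39 without passing it (limma, Benjamini-Hochberg adjusted p = 0.252).

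Pools of the same diet were then compared gene by gene, with the group means removed and each gene at its brightest probe set. PCCA and MMAA moved together most closely (Pearson's r = 0.763 over 10 pools, exact permutation p = 0.0214, Benjamini-Hochberg adjusted 0.252 over 21 pairs; Spearman's rho = 0.796, p = 0.0049, adjusted 0.102). Leaving out the 2 pools most distant from the PCCA median gave r = 0.675. PCCB and MMAA gave r = 0.695 (exact permutation p = 0.0325, adjusted 0.252; rho = 0.721, p = 0.0340, adjusted 0.357) and r = 0.702 without the 2 farthest pools. MCEE and MMUT gave r = 0.689 (exact permutation p = 0.0422, adjusted 0.252; rho = 0.600, p = 0.0917, adjusted 0.418), and 0.499 without the 2 farthest pools.

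The carboxylase subunits PCCA and PCCB gave r = 0.667 (exact permutation p = 0.0479, adjusted 0.252; rho = 0.523, p = 0.145, adjusted 0.508). Without the 2 pools most distant from the PCCA median r was 0.157. Leaving them out also narrows the range of PCCA, so the drop cannot show that the relation rested on those pools. The mutase and PCCA gave r = 0.042 (exact permutation p = 0.910, adjusted 0.988; rho = -0.103, p = 0.795, adjusted 1), and leaving out the 2 pools most distant from the PCCA median gave r = -0.636. The mutase and PCCB gave r = 0.616 (exact permutation p = 0.0719, adjusted 0.273; rho = 0.636, p = 0.0744, adjusted 0.418), and 0.518 without the 2 pools most distant from the PCCB median. PCCA and MMAB ran in opposite directions at r = -0.656 (exact permutation p = 0.0781, adjusted 0.273; rho = -0.565, p = 0.0996, adjusted 0.418), and -0.778 without 2 pools chosen in the same way. Of 21 pairs 12 had r above 0, and 0 passed the adjustment.

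No gene of the pathway followed the width of the array past the adjustment. Against the interquartile range of the array, with group means removed, ACSS1 gave r = 0.713 over 10 pools (exact permutation p = 0.0375, Benjamini-Hochberg adjusted 0.263 over 7 genes; rho = 0.758, p = 0.0263, adjusted 0.184), and 0.487 without the 2 arrays farthest from the median. The mutase gave r = 0.164 (exact permutation p = 0.661, adjusted 0.771; rho = 0.152, p = 0.699, adjusted 0.699), and 0.085 without the 2 farthest arrays. The other 5 genes lay between 0.095 and 0.535, with adjusted p of 0.282 or more.

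Among 9148 genes outside the pathway, the closest to PCCA over the 10 pools with group means removed were MAP1LC3B (r = 0.920) and SKAP2 (0.912). The closest to PCCB were TSPAN6 (0.946) and NDUFA13 (0.931), and the closest to MMUT were PARK7 (0.908) and ENTPD6 (0.878). These values are the highest of a search over all genes and are given as a description. ENTPD6 was higher with CLA by 0.22 ± 0.090 SE and PARK7 by 0.03 ± 0.060 SE (limma, Benjamini-Hochberg adjusted p = 0.510 and 0.912).

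The neighbouring pathways were described by the brightest probe set of each gene, beside all 9155 named genes, of which 8.49% had an unadjusted p under 0.05, 4.35% higher and 4.14% lower, and 0% passed the adjusted test. In the breakdown of valine and isoleucine, which yields propionyl-CoA, 11 of 14 measured genes had a higher and 3 a lower mean, at a median of 0.13 against -0.010 over all genes. An unadjusted p under 0.05 was reached by 5 of 14 genes higher and 0 lower, and 0 passed the adjusted test. The count was between 5 and 7 in all alternatives run, and the median was 0.069 without CLA pool 2.

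DBT, the core subunit of the branched-chain ketoacid dehydrogenase complex, read 8.65, 8.60, 8.67, 8.54 and 8.65 in the control pools and 8.91, 9.16, 9.06, 8.99 and 8.92 in the CLA pools. Every CLA pool lay above every control pool, and the difference was 0.39 ± 0.069 SE (1.31-fold; limma, Benjamini-Hochberg adjusted p = 0.252). Its second, dim probe set differed by 0.01. DLD, the subunit that this complex shares with pyruvate dehydrogenase, read 9.80, 9.81, 9.91, 9.63 and 9.77 against 10.06, 10.16, 10.12, 10.01 and 9.99. Its groups did not overlap either, at a difference of 0.28 ± 0.070 SE (adjusted p = 0.332). Groups in which every CLA pool was higher made up 1.47% of all named genes.

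Further along the same route, HIBCH, which frees 3-hydroxyisobutyrate in valine breakdown, was higher by 0.32 ± 0.090 SE (limma, Benjamini-Hochberg adjusted p = 0.376), with 4 of 5 CLA pools above every control pool. PPM1K, the phosphatase that activates the dehydrogenase complex, was higher by 0.30 ± 0.099 SE (adjusted p = 0.418), and its other 3 sets differed by 0.08 to 0.37. BCKDK, the kinase that acts against PPM1K, also counts among the higher genes of this list, at 0.11 ± 0.11 SE (adjusted p = 0.811). ACAT1, which cleaves the product of isoleucine to acetyl-CoA and propionyl-CoA, was higher by 0.26 ± 0.081 SE (adjusted p = 0.418). ALDH6A1, the enzyme that makes propionyl-CoA from valine, differed the other way by -0.09 ± 0.095 SE (adjusted p = 0.824). BCAT2 of the same list was lower by more, at -0.19 ± 0.12 SE, with -0.05 at its dimmer set (adjusted p = 0.684 and 0.894). ACADSB differed by -0.0020 ± 0.18 SE (adjusted p = 0.998).

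On the side of succinyl-CoA, 10 of 16 measured genes of the route to glucose had a higher and 6 a lower mean, at a median of 0.054. That median was 0.023 without CLA pool 1 or without CLA pool 2, 0.033 without control pool 2, 0.016 after quantile normalization and 0.015 after cyclic loess normalization. An unadjusted p under 0.05 was reached by 2 higher and 0 lower, and 0 passed the adjusted test. SUCLG2, the subunit of the GTP-forming succinyl-CoA ligase that uses the mutase product, read 11.67, 11.68, 11.94, 11.62 and 11.81 in the control pools and 12.04, 12.03, 12.10, 11.94 and 11.94 in the CLA pools. The groups met at 11.94, and the difference was 0.27 ± 0.076 SE (limma, Benjamini-Hochberg adjusted p = 0.381). SUCLA2, its ATP-forming counterpart, was higher by 0.21 ± 0.098 SE, and SUCLG1, the subunit they share, by 0.13 ± 0.12 SE (adjusted p = 0.568 and 0.798).

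Of the gluconeogenic steps after the cycle, PCK1, cytosolic phosphoenolpyruvate carboxykinase, differed by -0.01 ± 0.060 SE, with an interval from -0.14 to 0.12 (limma, Benjamini-Hochberg adjusted p = 0.980). G6PC1, the catalytic subunit of glucose-6-phosphatase, differed by 0.05 ± 0.12 SE, with an interval from -0.21 to 0.31 (adjusted p = 0.931). SDHD, a subunit of succinate dehydrogenase, was the other gene of this route with an unadjusted p under 0.05.

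**Figure D4:**
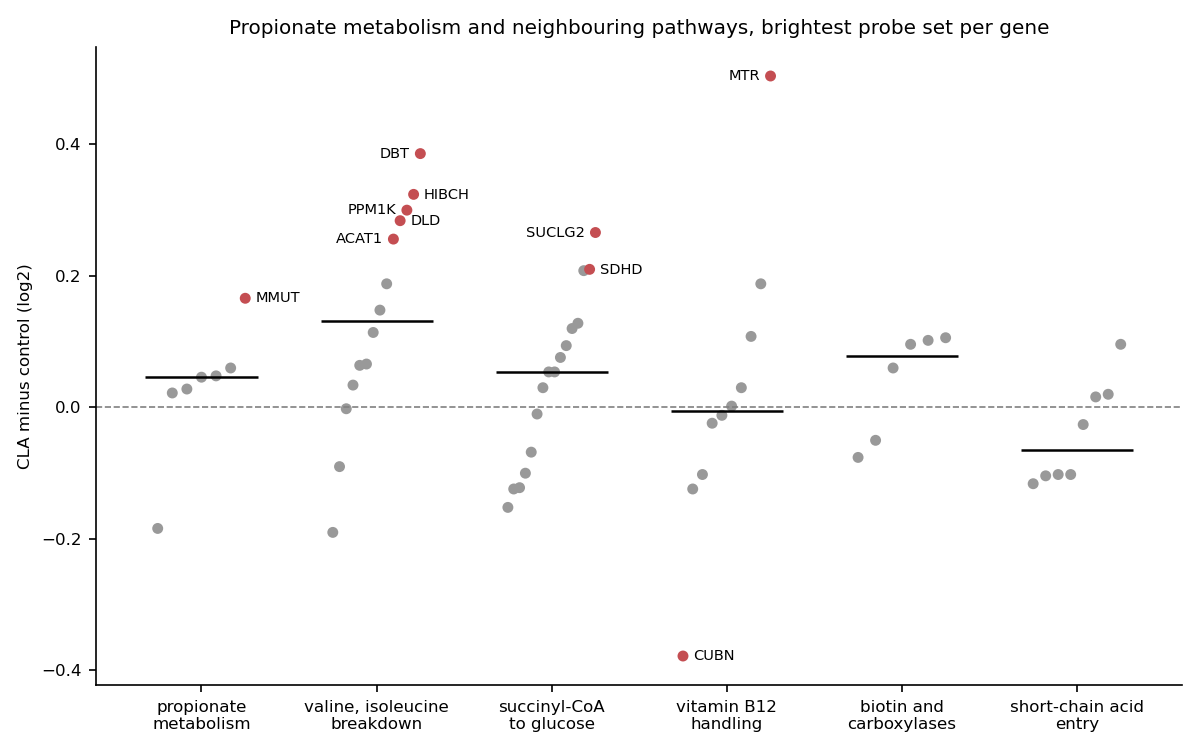
Difference between CLA and control pools on the log2 scale (vertical axis) for each gene of propionate metabolism and of 5 neighbouring lists (horizontal axis), at the brightest probe set; lines are list medians, and red, named points have an unadjusted p under 0.05. In the valine and isoleucine list 5 of 14 genes are red and above 0; no point passed the adjusted test.

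Among 10 measured genes of vitamin B12 uptake and processing 5 were higher and 5 lower (median -0.0050), with 1 gene each way at an unadjusted p under 0.05. That median had no stable sign: it ran from -0.018 without CLA pool 2 to 0.027 without control pool 4, and was -0.020 under quantile normalization and 0.026 with array medians subtracted. MTR, methionine synthase, the other enzyme that needs vitamin B12, was higher by 0.50 ± 0.14 SE at its brightest set and differed by 0.05 and -0.09 at its others (limma, Benjamini-Hochberg adjusted p = 0.379, 0.919 and 0.768). CUBN, the receptor cubilin, averaged 4.22 with CLA and 4.59 with the control fat, a difference of -0.38 ± 0.13 SE (limma, Benjamini-Hochberg adjusted p = 0.432). Both gave dim signals, with CUBN at the 30.3rd percentile of mean signal over the array and the brightest MTR set at the 38.8th. CBLIF and MTRR of the same list lay at the 11.3rd and 7.2nd, whereas the brightest TCN2 set lay at the 97.6th. MMADHC, which directs B12 to the mitochondrial or the cytosolic enzyme, differed by 0.11 ± 0.066 SE, and TCN2, the plasma carrier, by 0.0020 ± 0.10 SE (adjusted p = 0.676 and 0.996). The dimmer TCN2 sets differed by -0.24 to 0.13.

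Of 6 measured genes of biotin handling and the other biotin carboxylases 4 were higher and 2 lower (median 0.078, or 0.040 without control pool 4, 0.045 without CLA pool 1 and 0.016 with the mean of each gene's probe sets), and 0 had an unadjusted p under 0.05. BTD, which recycles biotin, differed by 0.11 ± 0.063 SE, and pyruvate carboxylase (PC) by -0.05 ± 0.15 SE (limma, Benjamini-Hochberg adjusted p = 0.658 and 0.955). Dimmer PC sets differed by -0.17 (limma, unadjusted p = 0.043, adjusted p = 0.553) and -0.06 (adjusted p = 0.913), and the dimmer BTD set by 0.01. Of 8 genes for the transport and activation of short-chain acids 3 were higher and 5 lower (median -0.064, between -0.083 and -0.020 with a single pool left out, the latter without CLA pool 5 and with control pools 2, 3 and 4 and CLA pool 1 also moving it by over 1.5 times, and -0.024 when probe sets were averaged per gene), with 0 at an unadjusted p under 0.05. ACSF3, malonyl-CoA synthetase, had the lowest p of them (-0.10 ± 0.091 SE, adjusted p = 0.782). ACSS2, the cytosolic relative of ACSS1, differed by -0.12 ± 0.16 SE (adjusted p = 0.875).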

How the data were processed

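Liver RNA pools (10, of 4 cows each) were measured on Affymetrix bovine arrays. The deposited table held normalized log2 values. The submitters' processing notes name Affymetrix Expression Console 1.1 and RMA, with settings not given in the sources used here. Values were used as deposited. Of 24128 probe sets 112 manufacturer controls were left out. Names came from the platform annotation: 13292 tested probe sets had 1 symbol, 86 several and 10638 none; 13263 were found in RefSeq genes of ARS-UCD2.0, with 0 differing symbols. No coordinates are given, since no build was named for the array. Detection calls were not used here; precision is limited by the number of arrays.

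CLA minus control was fitted with limma 3.58.1 (lmFit, eBayes) in R 4.3.3, with diet as the only term and all arrays included, and adjusted by Benjamini-Hochberg over 24016 probe sets at 0.05. Single values and relations were tested by exact permutation in Python 3.11.15 with scipy 1.17.1, relations over 14400 orders within groups. On simulated data with these means and spreads, 50 probe sets each were changed 1.3-fold, 1.5-fold, 2-fold and 3-fold at once among 24016. Limma recovered 28%, 80%, 96% and 100% of them, in that order. Many planted changes ease the adjusted cut, so these rates do not hold for a change that stands alone, and they are not the power of the real comparison.

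Members and lists were chosen with earlier results of these data known. Named were all member probe sets, the gene of smallest p in each list, the 2 genes most like PCCA, PCCB and MMUT, and genes of the lists with a direct role beside a member. Alternatives were 3 normalizations, a filter on the dimmest 30%, other variance models, array weights, the block and each pool left out; leaving out the 2 arrays farthest from the rest, and for the lists the pools and the block, were added after seeing the data.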

Additional observations from a re-analysis of the deposited data

How the results depend on the processing

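The adjusted test called 0 of the 9 propionate probe sets under all 19 alternatives, and 0 of all probe sets under 18 of them; without the 2 arrays farthest from the rest (CLA pool 2 and control pool 4) it called 1 probe set. At an unadjusted p under 0.05, 1474 probe sets were higher and 627 lower after subtraction of array medians (962 and 1173 as reported). By the same cut 1196 were higher and 779 lower after cyclic loess normalization, and 1100 and 817 after quantile normalization. Without the dimmest 30%, which leaves fewer probe sets to count, 853 were higher and 648 lower. The count of propionate probe sets under that p, 1 as reported, was 0 after quantile normalization, after cyclic loess normalization and with the pool number as a block, and 0 to 1 with a single pool left out. Deviations of same-numbered pools correlated at -0.086 to 0.093, and 2 of 5 control pools correlated best with the CLA pool of their number. The sample titles give only a number, and these values cannot settle whether same-numbered pools were handled together. The block gave 1000 probe sets higher and 1168 lower at an unadjusted p under 0.05, with 0 past the adjusted test; limma gave MMUT an unadjusted p of 0.0642 there (adjusted p = 0.573). The median difference of the 9 sets was -0.030 with array weights, -0.035 without the 2 farthest arrays and -0.036 to 0.057 with a single pool left out. MCEE turned to -0.014 after quantile normalization, -0.0057 after cyclic loess normalization, -0.036 with array weights and -0.055 without the 2 farthest arrays, and ran from -0.040 to 0.088 with a single pool left out. The brighter MMAB set turned to -0.014, -0.010, -0.030 and -0.035 in the same order, and ran from -0.052 to 0.073. PCCA, PCCB, MMUT, MMAA, the dimmer MMAB set and both ACSS1 sets kept their direction in all alternatives, though not their size, PCCB at 0.00010 at the lowest. The filter on dim probe sets, the block and the other variance models leave every difference unchanged, so only the remaining alternatives could turn a sign. With a single pool left out, PCCA minus PCCB changed by -0.0095 to 0.048 and MMAA minus MMAB by -0.062 to 0.10. Among the lists, the biotin median was 0.016 and 1 gene of vitamin B12 handling had an unadjusted p under 0.05 when probe sets were averaged per gene, and 4 genes of the route to glucose did after cyclic loess normalization. Leaving out a single pool gave 0 to 1 genes for biotin and for short-chain acids (1 for the latter also without the 2 farthest arrays) and a median of 0.069 to 0.16 for valine and isoleucine breakdown. The causes of these shifts were not tested. The planned ACSS1 minus ACSS3 comparison was not run, as ACSS3 was not analysed here.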
